A study of Mus musculus with 2 samples.

Results

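Wnt signalling genes were followed across the cell types of the embryonic mouse testis to see which nuclei carried the RNA of the secreted signals and which carried the RNA of the receptors. The members were all genes of the deposited matrix whose symbols name a Wnt ligand, a Frizzled, an R-spondin, an SFRP or a Dickkopf, together with *Lgr4*, *Lgr5*, *Lgr6*, *Lrp5*, *Lrp6*, *Ror1*, *Ror2*, *Axin2*, *Lef1*, *Tcf7* and *Wif1*. This gave 52 genes of 32285. Whole testes at E14.5 came from embryos with *Nr5a1-cre*, a transgene that drives Cre in somatic gonadal cells, and *Rosa-tdTomato*, a reporter that Cre turns on. The number of pooled embryos was not stated in the labels or methods. The 10x multiome assay read RNA and open chromatin (ATAC) from the same nuclei, with 1 library of each, so no test between animals was possible and every interval below is an exact 95% interval that covers counting error only. No second genotype or stage was compared, so all comparisons below are between classes of nuclei of the same testes.

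Wnt ligands are lipid-bearing secreted proteins that bind Frizzled receptors. With the co-receptors LRP5 and LRP6 they stabilise beta-catenin, which acts with TCF and LEF factors on target genes such as *Axin2*, and with ROR receptors they act without beta-catenin on cell shape and movement. R-spondins bind LGR receptors and keep Frizzleds on the cell surface, while SFRP and WIF proteins and some Dickkopfs oppose the ligands or the co-receptors. All of these families are called secreted inhibitors here by name, whatever the action of a single member. In the mouse gonad, *Wnt4* and *Rspo1* are known for promoting ovarian fate, and *Wnt5a* is a known marker of the non-steroidogenic testis interstitium.

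From 9833 barcodes, 7197 nuclei were kept, with medians of 7949 RNA molecules (UMIs), 3157 genes and 4484 fragments. Joint clusters of RNA and chromatin, made without any member or peak near one, fell into 12 classes named from marker genes. These were 2617 progenitor-like, 989 germ-like, 831 Sertoli-like, 755 Leydig-like, 704 contractile-like, 548 surface epithelium-like, 389 mesonephric mesenchyme-like, 96 endothelial-like, 85 supporting-like, 68 pericyte-like, 69 immune-like and 46 erythroid-like nuclei, the last class being left out below for its size. Markers of the testis were in place: the 5 Leydig markers summed to 4377 CPM (counts per 1000000 UMIs) in Leydig-like nuclei and the 5 germ markers to 1381 CPM in germ-like nuclei. The 5 progenitor markers set their class apart less sharply. They summed to 1692 CPM in progenitor-like, 1032 CPM in contractile-like and 836 CPM in mesonephric mesenchyme-like nuclei. Supporting-like nuclei carried *Pax8* at 720.4 CPM and *Aldh1a3* at 107 CPM, but *Krt8* at 3.83 CPM and *Cdh16* at 4.78 CPM, and the 6 surface epithelium markers summed to 1801 CPM in them, mostly *Pdgfc* (1512 CPM), against 1970 CPM in surface epithelium-like nuclei. The 5 mesonephric tubule markers summed to 135 CPM in supporting-like nuclei, the highest sum of the classes, and that list scored next at 2.09 against 2.63, so the name of this class is uncertain. Free RNA was not removed, and *Cyp17a1*, an androgen-making enzyme of Leydig cells, stood between 146 and 337 CPM outside Leydig-like nuclei and at 1789 CPM in them. In endothelial-like nuclei, 6 nuclei of over 50000 UMIs held 45.8% of all UMIs, in immune-like 2 held 37.1% and in germ-like 44 held 23.0%. Class-restricted members led by those classes are therefore also given without such nuclei, while most other values in them are not. The class names were set here from markers and may differ from those of the study.

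Of the 52 members, 42 had at least 20 UMIs over the kept nuclei and are called measured. The other 10 were *Wnt1* with 0 UMIs, *Wnt8a* and *Dkk4* with 1 each, *Wnt10a* with 4, *Wnt10b* and *Sfrp5* with 6 each, *Wnt3a* and *Wnt9b* with 8 each, *Wnt8b* with 16 and *Wnt7a* with 18. A class without a UMI of a gene could still hold it at up to 0.144 CPM in the largest class by UMIs, germ-like, and up to 4.32 CPM in the smallest, pericyte-like (3 counts). A member was called class-restricted when its highest class had at least 2 times the CPM of the next class, with the interval of the ratio above 1. By this rule 19 of the 42 measured members (45.2%) were class-restricted, against a background of 16.8% of all genes with at least 20 UMIs. *Rspo4*, *Wnt16* and *Wnt7b* reached 20 UMIs only through their leading class. Among the 39 members with 20 UMIs outside it, 16 (41.0%) were class-restricted, against 15.0% of all genes under the same filter. The call held under each alternative set of nuclei or clusters and with ambient RNA subtracted for 7 of the 19 (*Lgr5*, *Rspo1*, *Rspo2*, *Sfrp4*, *Wnt2b*, *Wnt3* and *Wnt6*) and was lost under at least 1 of them for 11, while the class of *Wnt16* was not found under stricter minimums or with clusters from ATAC alone. Surface epithelium-like nuclei led 7 of the 19, Sertoli-like 4, germ-like 3, endothelial-like 3 and mesonephric mesenchyme-like 2. Of all 3262 class-restricted genes, these 5 classes led 153, 275, 1143, 190 and 84, in the same order. As percentages of all genes with at least 20 UMIs, restricted or not, these were 0.788, 1.42, 5.89, 0.979 and 0.433. Progenitor-like, Leydig-like, contractile-like, supporting-like, immune-like and pericyte-like nuclei held no class-restricted member. Of all genes with at least 20 UMIs, the percentages restricted to them were 0.185, 2.08, 0.0721, 1.25, 3.12 and 0.597, in the same order. These shares are low, so the absence is not read as a trait of the members. By role, the rule was met by 8 of 11 measured ligands, 4 of 7 R-spondins and LGRs, 3 of 14 receptors, 4 of 7 secreted inhibitors and 0 of 3 nuclear factors and targets. The counts by class and by role still include *Rspo4*, *Wnt16* and *Wnt7b*, which were measured only through their leading class. Those counts are therefore not read as a trait of a class or a role.

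**Figure D1:**
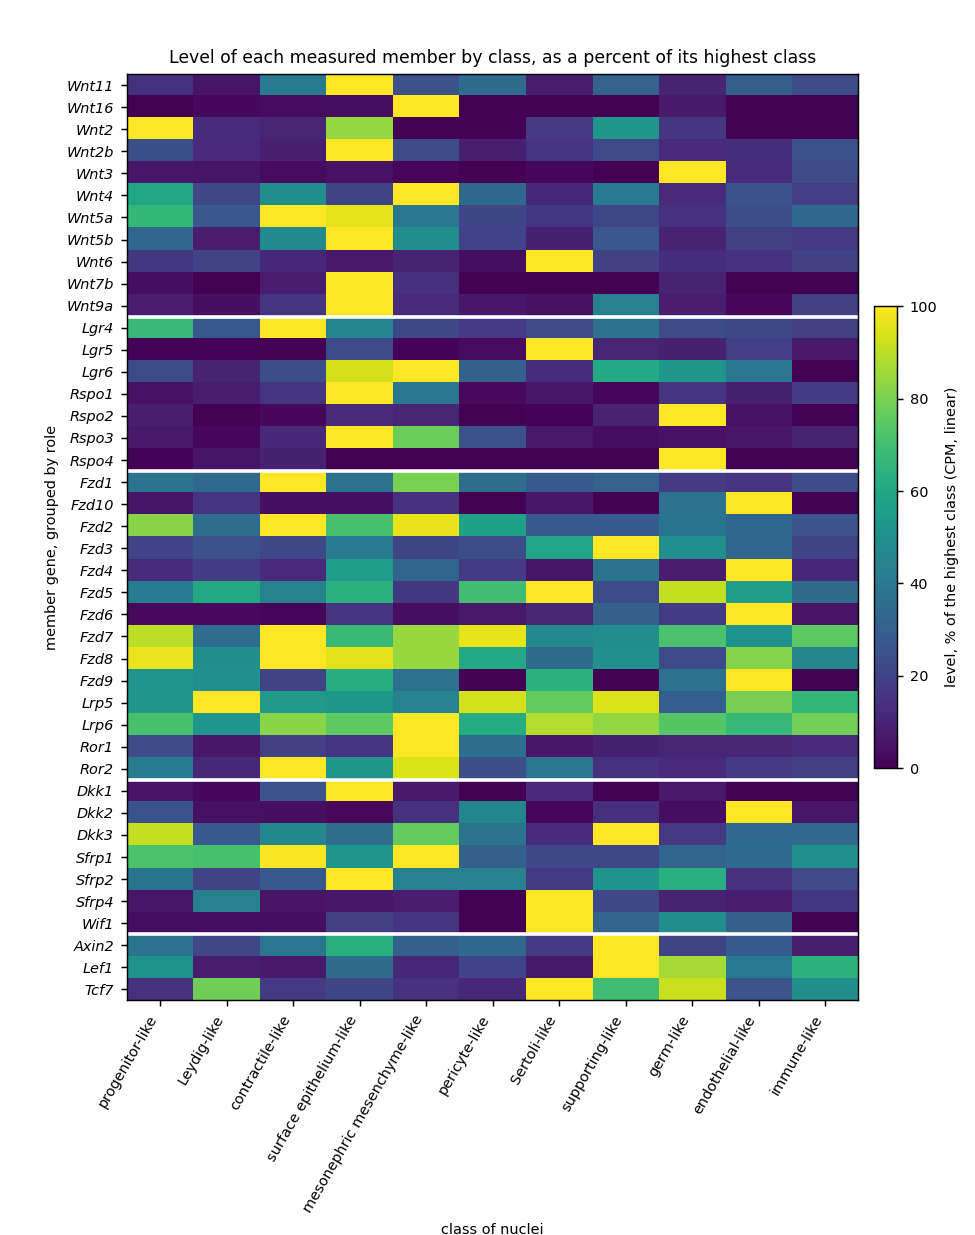
Each row is a measured member, grouped by role between white lines (ligands, R-spondins with LGRs, receptors, secreted inhibitors, nuclear factors with *Axin2*), and each column a class of nuclei. Colour gives the summed level in CPM as a percent of the gene's own highest class, so rows cannot be compared in level. Ligand rows mostly hold 1 bright cell, 5 of 11 of them in surface epithelium-like nuclei, while *Lrp6*, *Fzd7* and *Fzd8* are bright in most columns.

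Of the 19 class-restricted members, 15 had a peak within 100 kb with at least 20 cuts in the leading class, and the sequences of 4 such peaks with large ratios are shown to place them. For each, the peak within 100 kb with the largest ratio of cuts in the leading class to all other nuclei is given, so the ratio is a description and not a test. The peak of *Lgr5*, in an intron 68.6 kb after the gene start, had 25.7 cuts per 1000000 in Sertoli-like nuclei and 2.08 in all other nuclei, a ratio of 12.4 (interval 8.55 to 18.1, 76 cuts). That of *Sfrp4*, between genes 31.9 kb before the start, had 24 cuts per 1000000 in Sertoli-like nuclei and 1.21 in all other nuclei, a ratio of 19.9 (interval 12.8 to 31.9, 71 cuts). That of *Wif1*, between genes 16.7 kb before the start, had 24 cuts per 1000000 in Sertoli-like nuclei and 2.33 in all other nuclei, a ratio of 10.3 (interval 7.17 to 14.9, 71 cuts). All 3 genes had their highest RNA level in Sertoli-like nuclei. For *Wnt3*, led by germ-like nuclei, an intronic peak 3.9 kb after the start had 21.9 cuts per 1000000 in germ-like nuclei and 1.21 in all other nuclei, a ratio of 18.1 (interval 11.7 to 28.7, 104 cuts). Most fragments gave both of their cuts to a peak, and 87.4% of the nonzero peak counts were even numbers, so intervals on cuts are too narrow. Over the 15 members the median of this largest ratio was 7.81, with 6 members at 10 or more and *Wnt16* the lowest at 1.59 on 33 cuts. A largest ratio is high through its choice, and no such median over all class-restricted genes is given, so it supports no statement about the members. *Ror1* was also low at 2.25 (interval 1.47 to 3.33). The 4 peaks were picked after their values were seen. The central 300 bases of these peaks (mm10/GRCm38, plus strand, RefSeq genome) are at chr10:115518723-115519022 for *Lgr5*, chr13:19591070-19591369 for *Sfrp4*, chr10:121017099-121017398 for *Wif1* and chr11:103777869-103778168 for *Wnt3*. Capitals mark CTTTGA, the core bound by TCF and LEF factors, on either strand.
Lgr5: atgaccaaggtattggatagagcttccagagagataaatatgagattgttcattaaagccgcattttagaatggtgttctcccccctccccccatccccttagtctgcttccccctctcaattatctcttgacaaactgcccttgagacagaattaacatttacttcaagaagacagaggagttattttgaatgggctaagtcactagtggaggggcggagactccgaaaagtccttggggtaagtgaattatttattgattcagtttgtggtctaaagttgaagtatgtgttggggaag
Sfrp4: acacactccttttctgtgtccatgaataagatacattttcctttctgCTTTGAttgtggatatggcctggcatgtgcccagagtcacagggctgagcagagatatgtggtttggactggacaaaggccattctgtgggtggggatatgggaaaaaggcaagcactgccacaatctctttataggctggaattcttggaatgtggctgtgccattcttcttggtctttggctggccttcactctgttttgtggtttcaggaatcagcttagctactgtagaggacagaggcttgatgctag
Wif1: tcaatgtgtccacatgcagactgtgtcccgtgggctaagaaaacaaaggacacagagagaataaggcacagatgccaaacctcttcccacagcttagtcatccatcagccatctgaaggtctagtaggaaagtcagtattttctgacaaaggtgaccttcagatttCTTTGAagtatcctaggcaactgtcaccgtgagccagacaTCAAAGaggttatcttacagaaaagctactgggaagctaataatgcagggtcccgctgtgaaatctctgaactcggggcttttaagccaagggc
Wnt3: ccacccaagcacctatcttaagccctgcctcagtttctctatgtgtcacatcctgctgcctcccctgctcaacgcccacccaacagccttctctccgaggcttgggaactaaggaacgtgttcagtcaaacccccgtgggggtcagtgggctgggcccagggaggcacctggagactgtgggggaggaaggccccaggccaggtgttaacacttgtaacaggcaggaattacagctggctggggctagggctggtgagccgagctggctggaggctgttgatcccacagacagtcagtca
The core stood once in the *Sfrp4* window, 2 times in the *Wif1* window and in no other of these, and it stands in 18.1% of the central 300 bases of all 109183 peaks searched. The longer form CCTTTGAT, which contains the core, was in none of them and is in 1.13% of all. These matches describe letters and not binding.

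Promoter windows were taken from RefSeq (GRCm38.p6, 250 bases before to 50 after a start), where 35 of the 52 members matched by symbol with 42 windows. Of these, 6 windows (14.3%) held CTTTGA on either strand, against 16% of all 32851 windows, and 0 held CCTTTGAT, against 1.07%. The windows of *Axin2*, the general target of beta-catenin signalling, at chr11:108920099-108920398, and of *Rspo4*, whose promoter was most open in germ-like nuclei as its RNA was highest there, at chr2:151842677-151842976, both on the plus strand, are printed in the same way.
Axin2: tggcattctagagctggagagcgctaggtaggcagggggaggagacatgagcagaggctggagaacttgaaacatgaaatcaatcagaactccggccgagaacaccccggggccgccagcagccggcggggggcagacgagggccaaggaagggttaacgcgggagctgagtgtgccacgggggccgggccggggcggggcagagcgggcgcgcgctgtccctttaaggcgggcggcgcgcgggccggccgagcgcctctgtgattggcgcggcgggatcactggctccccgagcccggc
Rspo4: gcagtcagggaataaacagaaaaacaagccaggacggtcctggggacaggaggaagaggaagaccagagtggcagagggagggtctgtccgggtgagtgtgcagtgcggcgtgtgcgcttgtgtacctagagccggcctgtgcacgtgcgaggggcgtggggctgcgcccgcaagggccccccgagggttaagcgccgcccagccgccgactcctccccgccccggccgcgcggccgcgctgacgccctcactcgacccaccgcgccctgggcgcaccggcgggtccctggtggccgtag
Neither held the core, so no base is in capitals.

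Among the ligands, *Wnt5a*, a ligand known for signalling through ROR2, was spread over the interstitial classes. Its level was 588 CPM in contractile-like nuclei, 566 in surface epithelium-like, 389 in progenitor-like, 231 in mesonephric mesenchyme-like, 197 in immune-like, 159.9 in Leydig-like, 142 in endothelial-like, 125 in supporting-like, 124 in pericyte-like, 94.7 in Sertoli-like and 86.8 in germ-like. Contractile-like and surface epithelium-like nuclei stood together at the top, 1.04-fold apart (95% interval 0.987 to 1.09), with progenitor-like nuclei next and germ-like nuclei lowest. When each nucleus was thinned to 2000 UMIs, 50.7% of progenitor-like, 22.9% of Leydig-like nuclei and 10.3% of germ-like nuclei had a *Wnt5a* UMI (81.8%, 62.6% and 43.5% unthinned). Germ-like nuclei, with a median of 15620 UMIs against 6296 in progenitor-like and 9858 in Leydig-like, are given for comparison. They were not shown to lack this RNA, and their free RNA differed. Subtraction of ambient RNA took 30.4% of their counts against 7.70% in Leydig-like nuclei. *Wnt5b*, a close relative of *Wnt5a*, was restricted to surface epithelium-like nuclei, 2.03-fold (95% interval 1.84 to 2.24) above the next class. This call was lost without doublet removal, under stricter minimums and with clusters from RNA alone. *Wnt5b* stood at 348 CPM in surface epithelium-like nuclei, 172 in mesonephric mesenchyme-like, 166 in contractile-like, 116 in progenitor-like, 94.7 in supporting-like, 70.5 in pericyte-like, 66 in endothelial-like, 57.5 in immune-like, 34.1 in germ-like, 31.9 in Sertoli-like and 26.7 in Leydig-like. *Wnt4*, the ligand of the ovarian pathway, was highest in mesonephric mesenchyme-like nuclei, 1.7-fold (95% interval 1.51 to 1.91) above the next class and so short of the rule. Its level was 128 CPM in mesonephric mesenchyme-like nuclei, 75 in progenitor-like, 63.6 in contractile-like, 52.6 in supporting-like, 43.2 in pericyte-like, 32.1 in endothelial-like, 27.3 in Leydig-like, 26.1 in surface epithelium-like, 23 in immune-like, 15.9 in germ-like and 14.2 in Sertoli-like. Sertoli-like and germ-like nuclei thus held the lowest *Wnt4* levels of the 11 classes.

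*Wnt6* was the ligand of Sertoli-like nuclei, 4.86-fold (95% interval 4.2 to 5.66) above Leydig-like nuclei. It measured 118 CPM in Sertoli-like nuclei, 24.2 in Leydig-like, 23 in immune-like, 23 in supporting-like, 18.9 in progenitor-like, 17.4 in endothelial-like, 15.3 in germ-like, 13.6 in contractile-like, 11.4 in mesonephric mesenchyme-like, 8.18 in surface epithelium-like and 4.32 in pericyte-like. A *Wnt6* UMI was found in 21.5% of thinned Sertoli-like nuclei against 1.82% of germ-like nuclei, the other cell type of the testis cords (72.3% and 15.9% unthinned). *Wnt3*, a ligand of the beta-catenin branch, was restricted to germ-like nuclei. The values were 18.8 CPM in germ-like nuclei, 4.32 in immune-like, 2.29 in endothelial-like, 1.11 in progenitor-like, 1.03 in Leydig-like, 0.951 in surface epithelium-like, 0.56 in contractile-like, 0.396 in Sertoli-like and 0.335 in mesonephric mesenchyme-like, with no UMI in pericyte-like and supporting-like. The next class, immune-like, rested on 3 UMIs, and the ratio to it was 4.36-fold (95% interval 1.48 to 21.2). Without nuclei of over 50000 UMIs, *Wnt3* measured 21.9 CPM in germ-like nuclei and had no UMI in immune-like nuclei.

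Surface epithelium-like nuclei led 4 further ligands that met the rule. Of these, *Wnt2b* kept its call under each alternative set of nuclei or clusters. The call of *Wnt11* was lost without doublet removal, at Scrublet's automatic doublet threshold, with clusters from RNA alone and at resolution 0.6. That of *Wnt9a* was lost without doublet removal, at the automatic threshold and under stricter minimums, and that of *Wnt7b* under stricter minimums. *Wnt9a* measured 22.1 CPM in surface epithelium-like nuclei, 9.57 in supporting-like, 4.32 in immune-like, 3.36 in contractile-like, 2.68 in mesonephric mesenchyme-like, 1.77 in germ-like, 1.75 in progenitor-like, 1.44 in pericyte-like, 0.991 in Sertoli-like, 0.919 in Leydig-like and 0.459 in endothelial-like. *Wnt2b* measured 17.5 CPM in surface epithelium-like nuclei, 4.32 in immune-like, 4.3 in progenitor-like, 4.01 in mesonephric mesenchyme-like, 3.83 in supporting-like, 2.67 in Sertoli-like, 2.29 in endothelial-like, 2.18 in Leydig-like, 2.1 in germ-like, 1.49 in contractile-like and 1.44 in pericyte-like. The next class of *Wnt2b*, immune-like, rested on 3 UMIs, and without nuclei of over 50000 UMIs it held 1 UMI (2.29 CPM, against 17.5 in surface epithelium-like). Over the next class, *Wnt9a* was 2.31-fold (95% interval 1.21 to 4.93) and *Wnt2b* 4.05-fold (95% interval 1.34 to 20) higher. *Wnt11*, a ligand known from tissue movements, measured 12.2 CPM in surface epithelium-like nuclei, 5.04 in contractile-like, 4.32 in pericyte-like, 3.83 in supporting-like, 3.67 in endothelial-like, 3.01 in mesonephric mesenchyme-like, 2.88 in immune-like, 1.8 in progenitor-like, 1.15 in germ-like, 0.991 in Sertoli-like and 0.689 in Leydig-like. *Wnt7b* rested on 22 UMIs in all and measured 2.47 CPM in surface epithelium-like nuclei, 0.335 in mesonephric mesenchyme-like, 0.239 in germ-like, 0.187 in contractile-like and 0.106 in progenitor-like, with no UMI in pericyte-like, immune-like, supporting-like, endothelial-like, Leydig-like and Sertoli-like. With 1 UMI in the next class its ratio was 7.39-fold (95% interval 1.11 to 314). *Wnt16* was restricted to mesonephric mesenchyme-like nuclei, on 27 UMIs in all. It measured 5.35 CPM in mesonephric mesenchyme-like nuclei, 0.383 in germ-like, 0.19 in surface epithelium-like, 0.187 in contractile-like and 0.115 in Leydig-like, with no UMI in pericyte-like, immune-like, supporting-like, endothelial-like, Sertoli-like and progenitor-like, a ratio of 14-fold (95% interval 5.65 to 37.7). *Wnt2* was the only measured ligand led by progenitor-like nuclei, without meeting the rule. It measured 1.8 CPM in progenitor-like nuclei, 1.52 in surface epithelium-like, 0.957 in supporting-like, 0.297 in Sertoli-like, 0.287 in germ-like, 0.23 in Leydig-like and 0.187 in contractile-like, with no UMI in pericyte-like, immune-like, endothelial-like and mesonephric mesenchyme-like.

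The R-spondins divided into a surface pair and a germ-like pair. *Rspo1* was restricted to surface epithelium-like nuclei, 2.51-fold (95% interval 1.92 to 3.31) above mesonephric mesenchyme-like nuclei. Its level was 57 CPM in surface epithelium-like nuclei, 22.8 in mesonephric mesenchyme-like, 10.1 in immune-like, 8.58 in contractile-like, 8.56 in germ-like, 5.04 in endothelial-like, 4.48 in Leydig-like, 3.67 in Sertoli-like, 2.87 in progenitor-like, 1.44 in pericyte-like and 0.957 in supporting-like. *Rspo3* was highest in the same class but was shared with mesonephric mesenchyme-like nuclei, 1.29-fold apart (95% interval 1.11 to 1.51). It measured 104 CPM in surface epithelium-like nuclei, 81 in mesonephric mesenchyme-like, 25.9 in pericyte-like, 11.8 in contractile-like, 10.1 in immune-like, 7.03 in Sertoli-like, 6.95 in progenitor-like, 6.42 in endothelial-like, 4.93 in germ-like, 3.83 in supporting-like and 1.84 in Leydig-like. Leydig-like nuclei held the lowest *Rspo3* level of the 11 classes. *Rspo2* was restricted to germ-like nuclei at 8.3-fold (95% interval 3.75 to 22.9). It measured 9.47 CPM in germ-like nuclei, 1.14 in surface epithelium-like, 1.0 in mesonephric mesenchyme-like, 0.957 in supporting-like, 0.796 in progenitor-like, 0.459 in endothelial-like, 0.187 in contractile-like and 0.099 in Sertoli-like, with no UMI in pericyte-like, immune-like and Leydig-like. *Rspo4* followed it, at 11.1-fold (95% interval 3.72 to 54.6) over a next class of 3 UMIs, a call lost without doublet removal. It measured 6.22 CPM in germ-like nuclei, 0.56 in contractile-like, 0.345 in Leydig-like and 0.053 in progenitor-like, with no UMI in pericyte-like, immune-like, supporting-like, endothelial-like, mesonephric mesenchyme-like, surface epithelium-like and Sertoli-like. Without nuclei of over 50000 UMIs, *Rspo2* stood at 9.70 CPM and *Rspo4* at 6.90 CPM in germ-like nuclei.

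Their receptors had other patterns. *Lgr4*, the widely expressed LGR, was found in every class and was highest in contractile-like nuclei, 1.49-fold (95% interval 1.45 to 1.53) above progenitor-like nuclei. It measured 1277 CPM in contractile-like nuclei, 857 in progenitor-like, 578 in surface epithelium-like, 475 in supporting-like, 350.5 in Leydig-like, 296 in germ-like, 279 in Sertoli-like, 276 in endothelial-like, 276 in mesonephric mesenchyme-like, 248 in immune-like and 212 in pericyte-like. *Lgr5*, known as a stem cell marker in several epithelia, was restricted to Sertoli-like nuclei, 4.49-fold (95% interval 3.83 to 5.29) above surface epithelium-like nuclei. It measured 145 CPM in Sertoli-like nuclei, 32.3 in surface epithelium-like, 26.1 in endothelial-like, 15.3 in supporting-like, 13.2 in germ-like, 10.1 in immune-like, 4.32 in pericyte-like, 1.49 in Leydig-like, 1.43 in progenitor-like, 1.34 in mesonephric mesenchyme-like and 0.746 in contractile-like. In thinned nuclei a *Lgr5* UMI was found in 21% of Sertoli-like, 4.05% of surface epithelium-like and 1.22% of germ-like nuclei (49.3%, 10.4% and 7.69% unthinned). The endothelial-like level of *Lgr5* was 9.30 CPM without the nuclei of over 50000 UMIs, against 154.5 CPM in Sertoli-like nuclei. *Lgr6* was low in all classes, at most 4.68 CPM in mesonephric mesenchyme-like nuclei, 1.07-fold (95% interval 0.509 to 2.17) above surface epithelium-like nuclei.

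**Figure D2:**
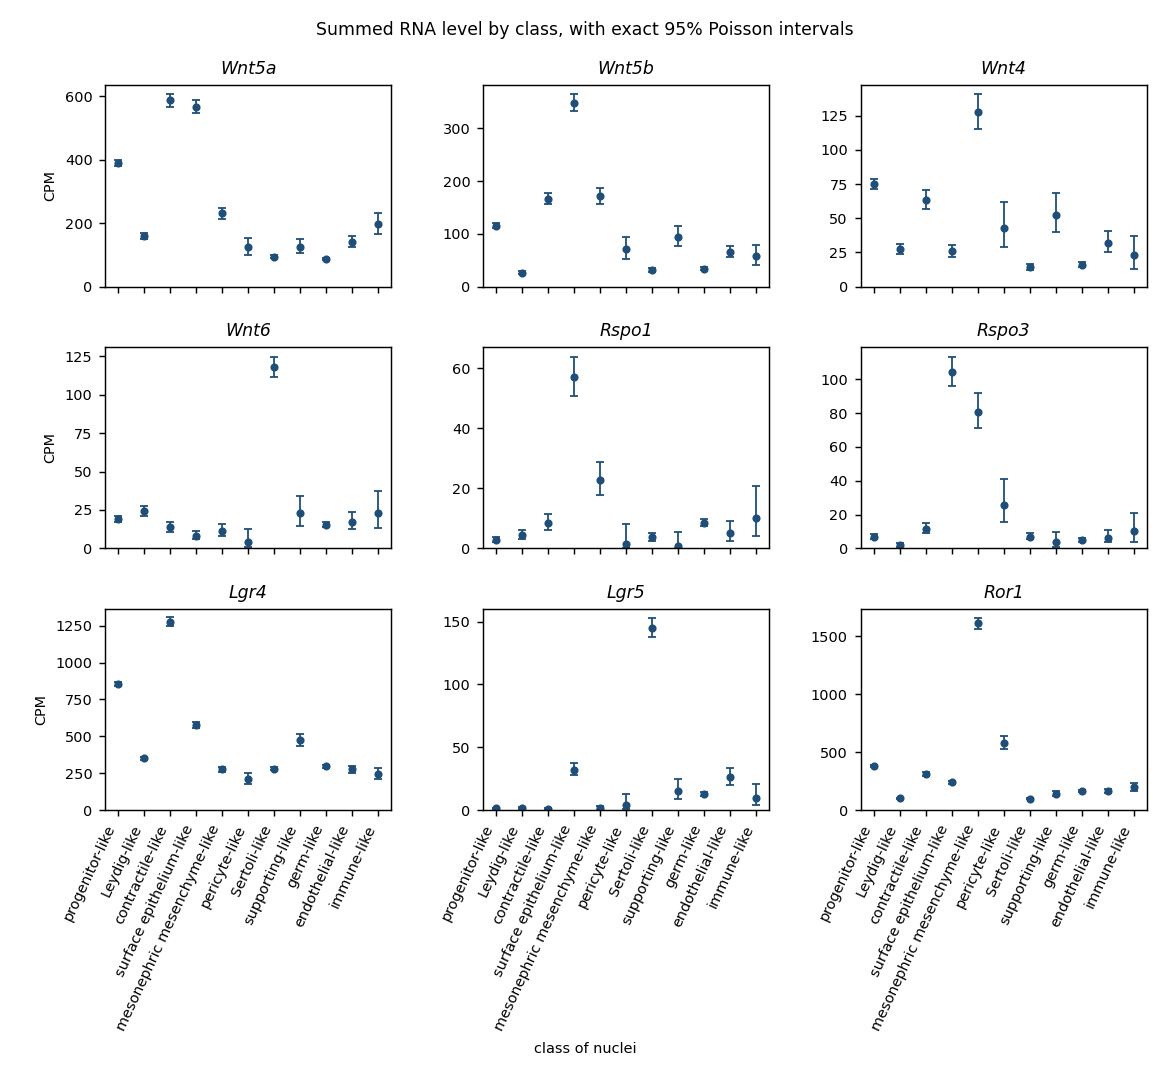
Summed RNA level in CPM (linear axis from 0) of 9 members in 11 classes of nuclei; points are class levels and bars exact 95% Poisson intervals, which cover counting error only. *Wnt6* and *Lgr5* stand out in Sertoli-like nuclei (118 and 145 CPM), *Rspo1* and *Wnt5b* in surface epithelium-like nuclei (57.0 and 348 CPM) and *Ror1* in mesonephric mesenchyme-like nuclei (1611 CPM), while *Wnt5a* and *Lgr4* stand highest in contractile-like nuclei.

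Among the receptors, *Ror1* and *Ror2*, which bind WNT5A, were both high in mesonephric mesenchyme-like nuclei. *Ror1* was restricted to mesonephric mesenchyme-like nuclei, 2.78-fold (95% interval 2.51 to 3.08) above pericyte-like nuclei. Its level was 1611 CPM in mesonephric mesenchyme-like nuclei, 579.9 in pericyte-like, 383 in progenitor-like, 312 in contractile-like, 239 in surface epithelium-like, 198 in immune-like, 166 in endothelial-like, 165 in germ-like, 141 in supporting-like, 102 in Leydig-like and 98.8 in Sertoli-like. A *Ror1* UMI was found in 85.8% of thinned mesonephric mesenchyme-like nuclei, 45.3% of progenitor-like, 8.64% of Leydig-like nuclei and 18.1% of germ-like nuclei (96.7%, 71.9%, 22.0% and 54.4% unthinned). The Leydig-like share was thus below the germ-like share, which does not show that *Ror1* RNA was absent from Leydig-like nuclei. *Gm12701*, which overlaps *Ror1* on the same strand, held 38 UMIs against 21374 for *Ror1*. *Ror2* was shared by contractile-like and mesonephric mesenchyme-like nuclei, 1.05-fold apart (95% interval 0.982 to 1.13). It measured 429 CPM in contractile-like nuclei, 407 in mesonephric mesenchyme-like, 227 in surface epithelium-like, 178 in progenitor-like, 169 in Sertoli-like, 102 in pericyte-like, 80.6 in immune-like, 73.4 in endothelial-like, 63.1 in supporting-like, 53.5 in germ-like and 47.2 in Leydig-like. Surface epithelium-like nuclei stood above progenitor-like nuclei, which were not separated from Sertoli-like nuclei (ratio 1.06, interval 0.997 to 1.12), and Leydig-like nuclei held the lowest *Ror2* level.

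Of 10 Frizzled genes, 2 met the class-restricted rule, both in endothelial-like nuclei, against 16.8% of all genes with at least 20 UMIs. These 2 are too few to set the family apart from genes at large. Both calls were lost with clusters from ATAC alone, where that class was not found, and that of *Fzd10* also under stricter minimums. *Fzd6*, known from planar polarity, was 3.26-fold (95% interval 2.27 to 4.82) above supporting-like nuclei. It measured 106 CPM in endothelial-like nuclei, 32.5 in supporting-like, 18.9 in germ-like, 16 in surface epithelium-like, 11.3 in Sertoli-like, 7.2 in pericyte-like, 5.75 in immune-like, 4.01 in mesonephric mesenchyme-like, 2.76 in Leydig-like, 2.55 in progenitor-like and 1.49 in contractile-like. *Fzd10* was low throughout, at 4.58 CPM in endothelial-like nuclei, 1.72 in germ-like, 0.689 in Leydig-like, 0.669 in mesonephric mesenchyme-like, 0.297 in Sertoli-like, 0.265 in progenitor-like, 0.19 in surface epithelium-like and 0.187 in contractile-like, with no UMI in pericyte-like, immune-like and supporting-like, a ratio of 2.66-fold (95% interval 1.18 to 5.48). *Fzd4*, the receptor of norrin in vessels, was also led by endothelial-like nuclei at 50.9 CPM, 1.82-fold (95% interval 1.41 to 2.35) above surface epithelium-like nuclei, and met the rule under 4 alternatives. Without nuclei of over 50000 UMIs, endothelial-like levels were 152 CPM for *Fzd6*, 7.61 CPM for *Fzd10* and 67.6 CPM for *Fzd4*, each higher than with them. *Fzd3* was led by supporting-like nuclei at 399.9 CPM, 1.71-fold (95% interval 1.53 to 1.9) above Sertoli-like nuclei. *Fzd1*, *Fzd2*, *Fzd7* and *Fzd8* were highest in contractile-like nuclei, each 1.25-fold or less above the next class with an interval that included 1. *Fzd2*, for example, measured 65.5 CPM in contractile-like nuclei, 63.2 in mesonephric mesenchyme-like, 53.8 in progenitor-like, 46.4 in surface epithelium-like, 37.4 in pericyte-like, 25.5 in germ-like, 23.6 in Leydig-like, 22 in endothelial-like, 19.1 in supporting-like, 18.8 in Sertoli-like and 17.3 in immune-like. *Fzd5* and *Fzd9* were low, at most 4.16 and 0.917 CPM in any class.

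The co-receptors were broad. *Lrp6* measured 427 CPM in mesonephric mesenchyme-like nuclei, 377 in Sertoli-like, 358 in supporting-like, 351 in contractile-like, 335 in immune-like, 321 in surface epithelium-like, 315 in germ-like, 302 in progenitor-like, 287 in endothelial-like, 265 in pericyte-like and 223 in Leydig-like, a range of less than 2-fold from Leydig-like to mesonephric mesenchyme-like nuclei. *Lrp5* ran the other way in the interstitium and was the only measured member led by Leydig-like nuclei. It measured 91.2 CPM in Leydig-like nuclei, 86.1 in supporting-like, 84.9 in pericyte-like, 72.4 in endothelial-like, 69.4 in Sertoli-like, 60.4 in immune-like, 49.4 in contractile-like, 48.8 in progenitor-like, 48.1 in surface epithelium-like, 40.5 in mesonephric mesenchyme-like and 27.4 in germ-like. Leydig-like and supporting-like nuclei were 1.06-fold apart (95% interval 0.851 to 1.33), and germ-like nuclei were lowest.

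The 4 class-restricted inhibitors were led by endothelial-like, Sertoli-like and surface epithelium-like nuclei. *Dkk2* was restricted to endothelial-like nuclei, 2.17-fold (95% interval 1.68 to 2.85) above pericyte-like nuclei. It measured 213 CPM in endothelial-like nuclei, 97.8 in pericyte-like, 55.3 in progenitor-like, 31.4 in mesonephric mesenchyme-like, 28.7 in supporting-like, 12.9 in immune-like, 9.31 in Leydig-like, 8.77 in contractile-like, 8.28 in germ-like, 5.13 in surface epithelium-like and 3.17 in Sertoli-like. Without nuclei of over 50000 UMIs it stood at 282 CPM in endothelial-like nuclei. The *Dkk2* call was lost without doublet removal and with clusters from ATAC alone, where the endothelial-like class was not found. In thinned nuclei a *Dkk2* UMI was found in 22.1% of endothelial-like, 6.89% of progenitor-like nuclei and 0.608% of germ-like nuclei (32.3%, 13.5% and 5.26% unthinned). *Sfrp4* and *Wif1*, which bind Wnt ligands directly, were restricted to Sertoli-like nuclei. *Sfrp4* measured 17.8 CPM in Sertoli-like nuclei, 7.81 in Leydig-like, 3.83 in supporting-like, 2.88 in immune-like, 1.77 in germ-like, 1.38 in endothelial-like, 1.34 in mesonephric mesenchyme-like, 1.14 in surface epithelium-like, 1.06 in progenitor-like and 0.933 in contractile-like, with no UMI in pericyte-like, at 2.28-fold (95% interval 1.72 to 3.06) over Leydig-like nuclei. *Wif1* measured 9.01 CPM in Sertoli-like nuclei, 4.4 in germ-like, 2.87 in supporting-like, 2.75 in endothelial-like, 1.71 in surface epithelium-like, 1.34 in mesonephric mesenchyme-like, 0.373 in contractile-like, 0.345 in Leydig-like and 0.318 in progenitor-like, with no UMI in pericyte-like and immune-like, at 2.05-fold (95% interval 1.51 to 2.77) over germ-like nuclei, a call that was lost when nuclei of over 50000 UMIs were left out (9.66 against 5.10 CPM). The *Wif1* call was also lost without doublet removal, with clusters from RNA alone and with ambient RNA subtracted. *Dkk1*, an inhibitor of LRP5 and LRP6, was restricted to surface epithelium-like nuclei on 53 UMIs in all, a call lost with clusters from RNA alone. It measured 4.94 CPM in surface epithelium-like nuclei, 1.31 in contractile-like, 0.594 in Sertoli-like, 0.335 in germ-like, 0.335 in mesonephric mesenchyme-like, 0.265 in progenitor-like and 0.115 in Leydig-like, with no UMI in pericyte-like, immune-like, supporting-like and endothelial-like, at 3.79-fold (95% interval 1.6 to 10.3). *Dkk3*, *Sfrp1* and *Sfrp2* did not meet the rule. *Dkk3* measured 33.5 CPM in supporting-like nuclei, 30.4 in progenitor-like, 25.4 in mesonephric mesenchyme-like, 15.5 in contractile-like, 12.9 in pericyte-like, 12 in surface epithelium-like, 11.5 in immune-like, 11.5 in endothelial-like, 9.31 in Leydig-like, 5.55 in germ-like and 4.06 in Sertoli-like. *Sfrp1* was highest in mesonephric mesenchyme-like and contractile-like nuclei (249 and 248 CPM) and lowest in supporting-like nuclei (52.6 CPM), and *Sfrp2* was highest in surface epithelium-like nuclei at 12.9 CPM.

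*Axin2*, the general readout of beta-catenin signalling, and *Lef1* were highest in supporting-like nuclei, the class of 85 nuclei with *Pax8*, which is also a marker of mesonephric tubules. *Axin2* measured 51.7 CPM in supporting-like nuclei, 32.7 in surface epithelium-like, 20.3 in contractile-like, 19.8 in progenitor-like, 17.3 in pericyte-like, 16.1 in mesonephric mesenchyme-like, 14.7 in endothelial-like, 10.9 in Leydig-like, 10.7 in germ-like, 9.21 in Sertoli-like and 4.32 in immune-like. Supporting-like nuclei were 1.58-fold (95% interval 1.14 to 2.16) above surface epithelium-like nuclei. The *Axin2* promoter was not most open in supporting-like nuclei, as described below. An *Axin2* UMI was found in 11.8% of thinned supporting-like, 6.63% of surface epithelium-like, 4.32% of progenitor-like, 2.26% of Leydig-like nuclei and 2.53% of germ-like nuclei (42.4%, 25.4%, 12.1%, 10.2% and 14.9% unthinned). *Lef1*, a nuclear partner of beta-catenin and itself a target, measured 165 CPM in supporting-like nuclei, 143 in germ-like, 106 in immune-like, 84.6 in progenitor-like, 68.8 in endothelial-like, 58 in surface epithelium-like, 33.1 in pericyte-like, 19.1 in mesonephric mesenchyme-like, 13.1 in Leydig-like, 11.7 in Sertoli-like and 11.4 in contractile-like. Supporting-like and germ-like nuclei were 1.15-fold apart (95% interval 0.983 to 1.35). *Tcf7*, another such partner, measured 26.1 CPM in Sertoli-like nuclei, 24 in germ-like, 20.4 in Leydig-like, 18.2 in supporting-like, 12.9 in immune-like, 6.88 in endothelial-like, 5.51 in surface epithelium-like, 4.48 in contractile-like, 3.71 in progenitor-like, 3.68 in mesonephric mesenchyme-like and 2.88 in pericyte-like. Sertoli-like, germ-like, Leydig-like and supporting-like nuclei thus had the 4 highest levels.

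To see whether *Axin2* stood alone, 10 feedback and target genes of the pathway were set side by side: *Axin2*, *Lef1*, *Tcf7*, the intracellular inhibitors *Nkd1* and *Nkd2*, the Wnt-inactivating enzyme *Notum*, the Frizzled-removing ligases *Rnf43* and *Znrf3*, the factor *Sp5* and the membrane inhibitor *Apcdd1*. The list was put together with earlier results known and supports no test. Of the other target genes listed for the pathway, *Ccnd1* was led by immune-like nuclei (18.7 CPM, with 16.3 in supporting-like), *Fst* by surface epithelium-like nuclei (11.2 CPM, with 0.957 in supporting-like) and *Myc* by endothelial-like nuclei (1.83 CPM, with no UMI in supporting-like), while *Foxl2* had 7 UMIs in all. Supporting-like nuclei led 7 of the 10 chosen genes, Sertoli-like 2 (*Nkd2* and *Tcf7*), surface epithelium-like 1 (*Nkd1*), and over all genes tested supporting-like nuclei led 9.53%. The lead over the next class had an interval above 1 for 5 of the 7, and for *Apcdd1* (1.53, interval 0.820 to 2.63, 14 UMIs) and *Lef1* it included 1. Supporting-like nuclei ranked among the 3 highest classes for 8. *Notum* measured 34.4 CPM in supporting-like nuclei and 2.75 CPM in endothelial-like nuclei, the next class, a ratio of 12.5 (95% interval 5.22 to 36.4). *Rnf43* measured 99.5 CPM there and 37.1 CPM in Sertoli-like nuclei, a ratio of 2.68 (interval 2.13 to 3.34). *Sp5*, on 41 UMIs in all, measured 9.57 CPM there and 0.909 CPM in germ-like nuclei, a ratio of 10.5 (interval 4.37 to 23.8). *Nkd1* was high in both surface epithelium-like and supporting-like nuclei, at 105 and 95.7 CPM. All other classes led none of the 10: progenitor-like, germ-like, Leydig-like, contractile-like, mesonephric mesenchyme-like, endothelial-like, immune-like and pericyte-like nuclei.

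**Figure D3:**
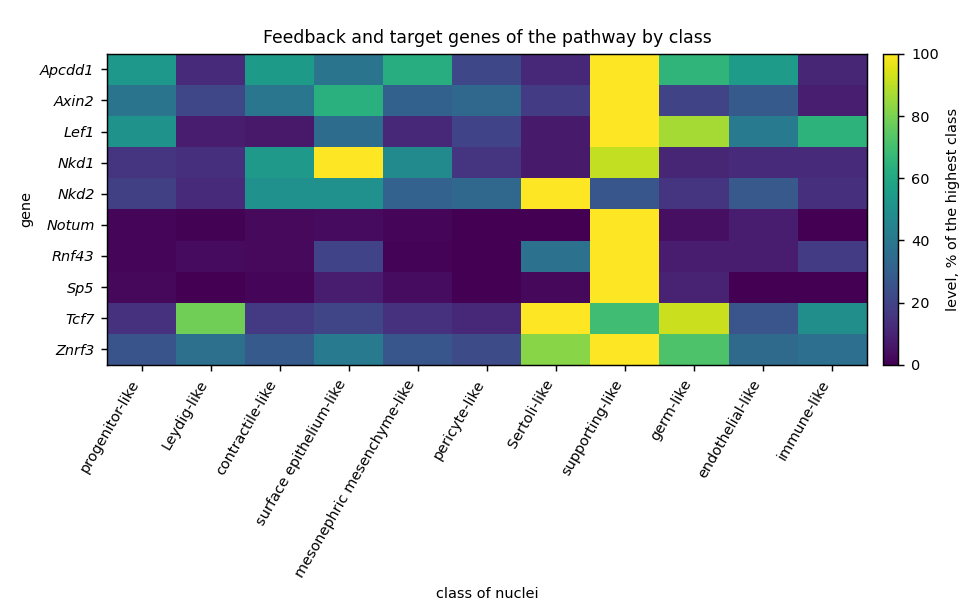
Rows are 10 feedback and target genes of Wnt signalling and columns 11 classes of nuclei; colour gives the level in CPM as a percent of each gene's highest class. The supporting-like column is the brightest in 7 rows, and *Notum*, *Sp5* and *Rnf43* are dim in most other columns.

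Progenitor-like and Leydig-like nuclei, the comparison at the centre of the study, were then set against each other. Of the 42 measured members, 15 (35.7%) were at least 2-fold higher in progenitor-like nuclei with the interval above 1, against 12.0% of all genes tested, and 2 (4.76%) were higher in Leydig-like nuclei, against 11.4%. The other 25 passed neither fold. The median log2 ratio was 0.93 over the members with UMIs in both classes and −0.03 over all genes. Among the ligands 5 of 11 were higher in progenitor-like nuclei and 0 in Leydig-like nuclei. The ratios of progenitor-like over Leydig-like CPM were 4.33 (interval 3.78 to 4.98) for *Wnt5b*, 2.74 (interval 2.39 to 3.16) for *Wnt4* and 2.43 (interval 2.29 to 2.58) for *Wnt5a*. *Wnt2* and *Wnt11* also passed, at 7.85 (interval 2.01 to 67.4) and 2.62 (interval 1.09 to 7.62), on few UMIs. *Wnt11* stood higher at the automatic doublet threshold of Scrublet (6.31) and with clusters from ATAC alone (4.21). With stricter minimums of 1000 genes and 1000 fragments both calls were lost, at 2.04 (interval 0.701 to 8.09) for *Wnt2* and 2.45 (interval 0.957 to 7.99) for *Wnt11*, and *Wnt2* fell to between 2.59 and 3.29 without doublet removal and with clusters from RNA or ATAC alone. The size of these ratios depended on doublet removal: at Scrublet's automatic threshold, which left 6239 nuclei, *Wnt5b* stood at 15.3 and *Wnt5a* at 3.66. *Wnt6* passed neither fold, at 0.781 (interval 0.657 to 0.931).

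On the receiving side, 4 of 14 receptors were higher in progenitor-like nuclei, by a rule that 12.0% of all genes tested met. These were *Ror2* at 3.78 (interval 3.41 to 4.2), *Ror1* at 3.77 (interval 3.51 to 4.04), *Fzd7* at 2.51 (interval 1.8 to 3.57) and *Fzd2* at 2.28 (interval 1.96 to 2.67). Both ROR receptors were thus among them. At the automatic doublet threshold *Ror2* stood at 26.6 and *Ror1* at 15.5, and with stricter minimums *Fzd2* lost its call at 1.96 (interval 1.65 to 2.33). *Lrp5* ran in the opposite direction, at 0.535 (interval 0.486 to 0.589), just short of the fold, which it passed at the automatic doublet threshold (0.489, interval 0.438 to 0.546). *Lgr4* and *Rspo3* were higher in progenitor-like nuclei, at 2.44 (interval 2.35 to 2.54) and 3.78 (interval 2.24 to 6.81). *Rspo2* had 15 UMIs in progenitor-like nuclei and 0 in Leydig-like nuclei and was called higher in progenitor-like nuclei. Its ratio had no upper bound, and the interval began at 1.66. Set against a floor of 3 counts the ratio was 2.31, which is not a lower bound. With clusters from ATAC alone this call was lost and the direction turned, at 0.633 (interval 0.293 to 1.41). Among the inhibitors *Dkk2* and *Dkk3* were higher in progenitor-like nuclei, at 5.95 (interval 4.74 to 7.55) and 3.27 (interval 2.58 to 4.17), while *Sfrp4* was higher in Leydig-like nuclei, at 0.136 (interval 0.0781 to 0.226). The nuclear factors split: *Lef1* was higher in progenitor-like nuclei, at 6.46 (interval 5.34 to 7.88), and *Tcf7* in Leydig-like nuclei, at 0.182 (interval 0.136 to 0.241). Over the alternatives tried, *Dkk2* ran from 3.10 to 65.9 and *Lef1* from 3.79 to 16, both highest at the automatic doublet threshold, where *Dkk3* stood at 5.36. *Rspo3* ran from 2.05 without doublet removal to 10.2 with ambient RNA subtracted. *Axin2* stood between, at 1.81 (interval 1.44 to 2.29), above 1 but short of the fold.

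**Figure D4:**
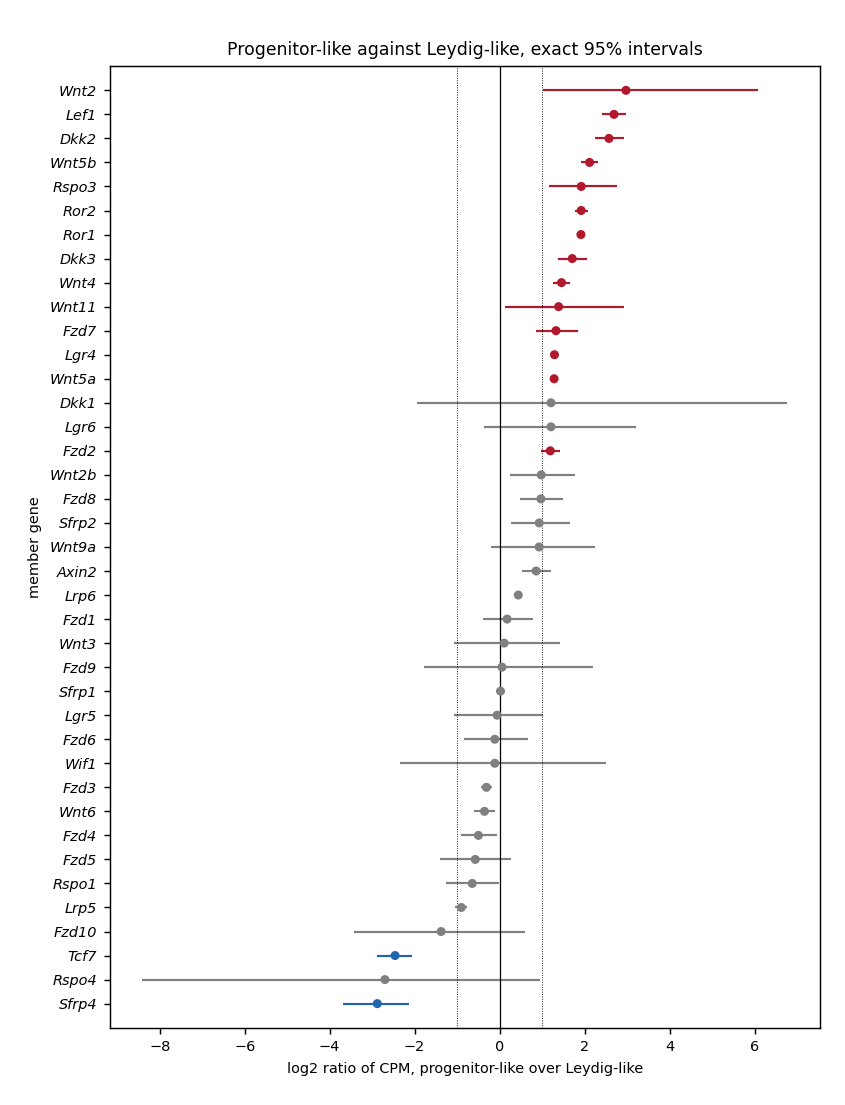
Points give the log2 ratio of CPM in progenitor-like over Leydig-like nuclei for the 39 measured members with UMIs in both classes, and bars exact 95% intervals of counting error; dotted lines mark 2-fold. Red members were at least 2-fold higher in progenitor-like nuclei, blue ones (*Tcf7* and *Sfrp4*) in Leydig-like nuclei, and grey ones passed neither rule.

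The rest of the pathway was described from a list of 54 other genes, of which 51 were measured. In progenitor-like nuclei 18 of the 51 (35.3%) were at least 2-fold higher, against 12.0% of all genes, and in Leydig-like nuclei 4 (7.84%), against 11.4%. The 3 with the largest ratio toward progenitor-like nuclei were *Gpc6*, a glypican that binds Wnt ligands, at 4.52 (interval 4.4 to 4.64), *Apcdd1* at 4.45 (interval 2.56 to 8.36) and *Adgra2*, a partner of *Reck* in ligand recognition, at 4.24 (interval 3.46 to 5.23). The 3 largest the other way were the glypican *Gpc4* at 0.241 (interval 0.226 to 0.257), the co-repressor *Tle2* at 0.253 (interval 0.226 to 0.282) and *Myc* at 0.32 (interval 0.121 to 0.808), the last on few UMIs. Of the 8 measured planar polarity genes, 4 passed toward progenitor-like nuclei and 0 toward Leydig-like nuclei. These 4 were *Prickle2* at 4.0 (interval 3.81 to 4.21), *Vangl2* at 2.46 (interval 2.01 to 3.05), *Vangl1* at 2.29 (interval 1.9 to 2.77) and *Daam1* at 2.04 (interval 1.86 to 2.23). *Prickle1*, *Daam2*, *Celsr1* and *Celsr2* did not pass, at 1.05 (interval 1.01 to 1.09), 0.822 (interval 0.708 to 0.956), 0.886 (interval 0.644 to 1.23) and 1.39 (interval 0.758 to 2.67). By the class-restricted rule 7 of the 51 (13.7%) passed, no larger a share than the 16.8% of all genes. They were *Notum*, *Rnf43*, *Sp5* and the planar polarity gene *Celsr2* in supporting-like nuclei, *Fst* in surface epithelium-like, *Gpc6* in pericyte-like and *Kremen2*, a receptor of Dickkopfs, in germ-like nuclei.

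Chromatin at the promoters was compared with RNA so that neither assay both made the classes and was counted on them: RNA was counted on classes clustered from ATAC alone, and promoter cuts on classes clustered from RNA alone. A peak lay within 1 kb of the span of start positions of 51 of 52 members (not *Wnt8b*). These included 9 of the 10 with under 20 UMIs, so a peak also stood at the promoters of members with few UMIs or none. All peaks in that span were summed, which for *Wnt5b* meant 13 peaks, some of them far from any single start. Of the 42 measured members, the interval of the promoter ratio of progenitor-like over Leydig-like excluded 1 in 17 and that of RNA in 26, against 33.6% and 56.0% of all 15982 genes compared in the same way. Both excluded 1 on the same side in 10 members (23.8%), against 16.7% of all genes, and on opposite sides in 2 (4.76%), against 3.98%. The promoter ratios were 4.16 (interval 1.86 to 11.6) for *Rspo3*, 2.71 (interval 1.79 to 4.29) for *Wnt2*, 2.5 (interval 1.67 to 3.88) for *Ror2*, 1.7 (interval 1.07 to 2.85) for *Dkk2*, 1.67 (interval 1.32 to 2.13) for *Fzd2*, 1.59 (interval 1.12 to 2.3) for *Ror1*, 1.41 (interval 1.11 to 1.81) for *Wnt4* and 1.18 (interval 1.04 to 1.35) for *Wnt5b*. Lower at the promoter as in RNA were *Fzd4* at 0.761 (interval 0.632 to 0.922) and *Sfrp4* at 0.43 (interval 0.273 to 0.693). The opposite sides were *Fzd8*, with an RNA ratio of 1.52 and a promoter ratio of 0.65 (interval 0.55 to 0.77), and *Wnt9a*, with 3.51 and 0.759 (interval 0.619 to 0.937). On the joint classes the RNA ratio of *Wnt9a* was 1.905, with an interval of 0.8625 to 4.773 that included 1. Under stricter minimums it was 1.054. The promoter ratio lay nearer to 1 than the RNA ratio for 9 of the 10 members on the same side, *Rspo3* being the exception. No such share over all genes is given, so this is not read as a trait of the members. With each fragment counted a single time, RNA and promoter were on the same side for 7 members, *Dkk2*, *Fzd4* and *Wnt5b* being lost, and on opposite sides for 1, *Fzd8*, the promoter interval of *Wnt9a* then including 1 (0.769, interval 0.579 to 1.03).

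**Figure D5:**
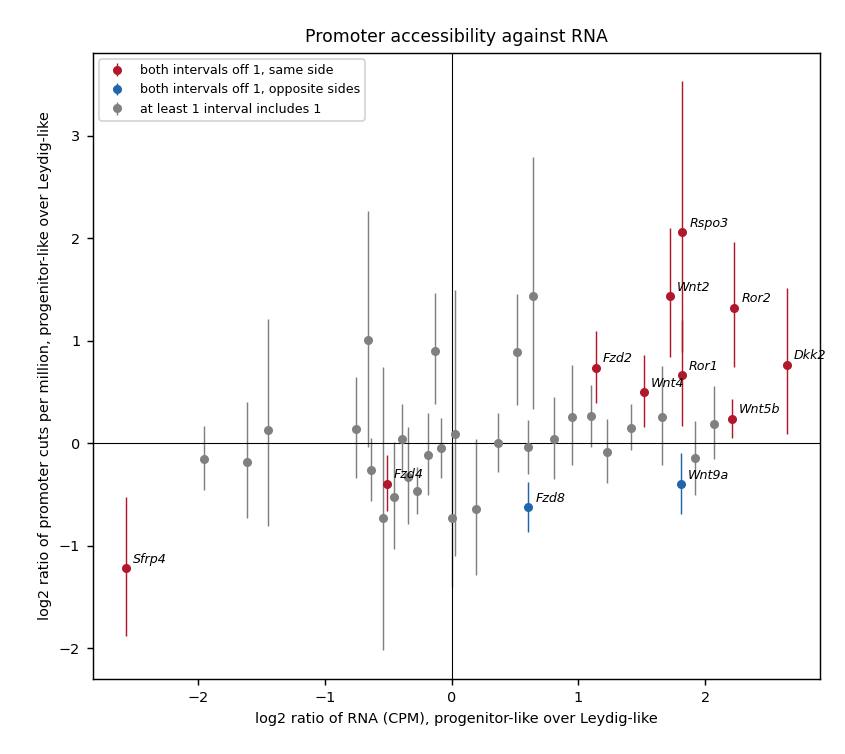
Each point is a measured member with RNA counts in both classes; the x axis gives the log2 ratio of RNA and the y axis that of promoter cuts per 1000000, both progenitor-like over Leydig-like, with exact 95% intervals of the promoter ratio, which are too narrow since the 2 cuts of a fragment are not independent. The 10 red members lie off 0 on the same side in both, and *Fzd8* and *Wnt9a*, in blue, lie on opposite sides.

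Promoters were also compared across all 11 classes. All 19 class-restricted members had a promoter peak with at least 20 cuts, and for 8 of them (42.1%) the promoter was most open in the class that led the RNA, while for 11 that class was among the 2 highest. Of all 2483 class-restricted genes with such a peak, the shares were 41.0% and 58.2%, so the members were close to genes at large. The 8 were *Rspo1* and *Wnt9a* in surface epithelium-like nuclei, *Wnt6* in Sertoli-like, *Rspo2*, *Rspo4* and *Wnt3* in germ-like and *Dkk2* and *Fzd6* in endothelial-like nuclei. The promoter of *Rspo4* had 20.2 cuts per 1000000 in germ-like nuclei and 10.3 in surface epithelium-like nuclei, a ratio of 1.97 (95% interval 1.18 to 3.47). That of *Wnt6* had 57.2 in Sertoli-like nuclei and 44.2 in Leydig-like ones, a ratio of 1.29 (interval 1.003 to 1.68). The interval of the other 6 included 1. *Axin2* and *Lef1*, not class-restricted, had their highest RNA in supporting-like nuclei but not their most open promoter. The *Axin2* promoter had 42.6 cuts per 1000000 there (interval 23.3 to 71.5, 14 cuts), the lowest of the 11 classes, though imprecise. It was highest in surface epithelium-like nuclei at 92.9 (interval 79.2 to 108). Supporting-like nuclei ranked 8 of 11 for the *Lef1* promoter, which was highest in germ-like nuclei at 46.3. The promoter peak of *Lgr5* was 1.96-fold (interval 1.43 to 2.63) more open in Sertoli-like than in all other nuclei and ranked behind immune-like nuclei, on 5 cuts, and surface epithelium-like nuclei, while its intronic peak printed above was 12.4-fold more open in Sertoli-like than in other nuclei.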

How the data were processed

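Nuclei of whole E14.5 testes gave 1 RNA and 1 ATAC library. Per the submitters' processing notes the authors ran Cell Ranger ARC 2.0.1 on mm10, and the deposited matrix holds raw counts of UMIs for each gene and of transposase cuts for each peak, with no filter on doublets or ambient RNA. The deposited fragment list gives each unique fragment and its count of read pairs.

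The members and all gene lists, markers included, were chosen with earlier results of these data known. Nuclei were kept at the study's thresholds, apart from its limit on fragments in blacklist regions, which was not applied: 250 to 25000 fragments at peaks, more than 500 genes, more than 20% of all fragments in peaks, and less than 10% mitochondrial, 10% ribosomal protein and 0.5% haemoglobin UMIs. Of 7667 such nuclei, the top 6.13% by Scrublet score (scanpy 1.11.5), 470 nuclei, were removed by rank in place of the study's own caller. Clusters came from weighted nearest neighbours in Seurat 5.3.0 (30 components each of 2000 variable genes and of TF-IDF weighted peaks, resolution 0.3). The variable genes left out the 52 members and 54 other pathway genes, and the ATAC reduction left out 822 peaks within 100 kb of members, so that no member helped to make the classes directly. Each cluster was named by the marker list with the top mean z score, unless under 3 of its markers were detected or a different list had more markers in the cluster's 10 leading genes.

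Class sums of UMIs or cuts were scaled to 1000000 of the class (CPM, or cuts per 1000000). Intervals are exact Poisson for levels, conditional binomial for ratios and Clopper-Pearson for shares. No p-value was computed, since nuclei are not replicates. Only the 2-fold call and the ratio interval were tried on simulated data, as independent Poisson counts of 2 classes. Clustering, class naming, thinning and promoter counting were not simulated. Shares of nuclei with a UMI were taken after thinning to 2000 UMIs, leaving out shallower nuclei. Promoter peaks were those within 1 kb of the span of start positions given for a gene in the deposited feature table. At least 20 cuts were required. Where starts lie far apart, peaks between them were summed too, as for *Wnt5b* (13 peaks), *Wnt5a* (6) and *Lgr6* (5). Gene models are from GENCODE M21. Values in all classes are given for members that met the class-restricted rule or the 2-fold rule between progenitor-like and Leydig-like nuclei, and for *Wnt4*, *Wnt5a*, *Rspo1*, *Lgr4*, *Lgr5*, *Lrp5*, *Lrp6*, *Axin2*, *Lef1* and *Tcf7*, with *Fzd7* given by its ratio only. Other pathway genes are named by their 3 largest ratios each way or by the class-restricted rule, and the rest, like the printed sequences, were chosen after their values were seen. The 11 alternatives changed doublet removal, filters, clustering, ambient RNA, count and fold minimums and the promoter counting, and 1 was added after seeing the data (without nuclei over 50000 UMIs).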

Additional observations from a re-analysis of the deposited data

How the results depend on the processing

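With a fold of at least 3 in place of 2, 10 members were class-restricted and 9 were higher in progenitor-like than in Leydig-like nuclei. Under the other alternatives run, class-restricted members numbered 13 to 19 of the measured ones, members higher in progenitor-like nuclei 12 to 18, members higher in Leydig-like nuclei 2 to 3, members with promoter and RNA on the same side 7 to 11, and the *Axin2* ratio of progenitor-like over Leydig-like ran from 1.52 to 1.93. The low of 13 came without doublet removal, where *Dkk2*, *Rspo4*, *Wif1*, *Wnt11*, *Wnt5b* and *Wnt9a* missed the rule. The rule was also missed by *Wnt11* and *Wnt9a* at Scrublet's automatic threshold, by *Fzd10*, *Wnt5b*, *Wnt7b* and *Wnt9a* under stricter minimums, by *Dkk1*, *Wif1*, *Wnt11* and *Wnt5b* with clusters from RNA alone, by *Wnt11* at resolution 0.6, and by *Wif1* with ambient RNA subtracted and without nuclei of over 50000 UMIs, the last chosen after seeing the data. Members that newly met it were *Fzd4* at the automatic threshold, with clusters from RNA alone, with ambient RNA subtracted and without nuclei of over 50000 UMIs, *Fzd1* and *Ror2* under stricter minimums and with clusters from RNA alone, and *Rspo3* under these and with clusters from ATAC alone. Under stricter minimums the mesonephric mesenchyme-like class was not found. With clusters from ATAC alone, most erythroid-like, immune-like, endothelial-like and pericyte-like nuclei shared a cluster, mesonephric mesenchyme-like nuclei lay mostly with contractile-like ones and supporting-like nuclei with Sertoli-like ones, and *Dkk2*, *Fzd10*, *Fzd6* and *Ror1* were not class-restricted. In each alternative set of nuclei or clusters, every one of the 19 members whose class was found kept its leading class. Of 230 recomputed ratios of the leading class over all other nuclei, 51 moved beyond their interval and 0 changed sign. Of 129 recomputed ratios of progenitor-like over Leydig-like for the called members, 37 moved beyond their interval and 1 reversed, *Rspo2* with clusters from ATAC alone (0.633), and the call was lost under some alternative for *Fzd2*, *Rspo2*, *Wnt11* and *Wnt2*. The cause was not tested. No paired analysis was possible because each assay has 1 library. Classes of under 100 nuclei and members of under 100 UMIs are the least precise.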

Other observations

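Progenitor-like nuclei fell into a larger cluster of 2019 nuclei and a cluster of 598 nuclei with higher cell cycle genes. Of the measured members, 13 had an interval of the ratio between these clusters that excluded 1, 10 (23.8%) being lower and 3 (7.14%) higher in the cycling cluster, against 17.8% and 10.5% of all genes tested. Among these 13, the ratio of cycling over non-cycling was at least 2-fold away from 1 only for *Lgr5*, at 0.263 (95% interval 0.0507 to 0.866), on 3 UMIs in the cycling cluster. *Lgr5* was near the floor here, at 1.43 CPM in progenitor-like against 145 CPM in Sertoli-like nuclei. With ambient RNA subtracted, no count of it was left to form a ratio of progenitor-like over Leydig-like nuclei. *Wnt4* measured 58.6 CPM in the cycling and 82.7 CPM in the other cluster, a ratio of 0.709 (interval 0.627 to 0.80). *Lef1* measured 68.2 and 92.3 CPM, a ratio of 0.739 (interval 0.659 to 0.827). *Rspo3* ran the other way at 9.55 and 5.71 CPM, a ratio of 1.67 (interval 1.16 to 2.39). *Ror1* and *Ror2* were slightly higher in the cycling cluster, at ratios of 1.14 (interval 1.09 to 1.2) and 1.13 (interval 1.05 to 1.21). The intervals cover counting error only.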
